A study of Mus musculus with 18 samples.

Results

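The potassium channel genes were followed in the brain of mouse pups given lead. Members were all genes whose symbol begins with Kcn and a channel family letter (a to h, j, k, m, n, q, s, t or v), each read by a probe set that carries no other symbol. Where a gene had several such probe sets, the brightest by mean value over the arrays stood for it. The rule gave 79 genes of the 18194 named by single-symbol probe sets on the array, and it used no difference between groups. Of the 79, 47 lay in the brighter 60% of genes (a mean value of 9.42 or more, log2), where 10916 genes were tested, and 32 lay below. Just inside this limit were Kcnk13 at 9.42 and Kcnk12 at 9.46, and just outside it Kcnj6 at 9.40 and Kcnn3 at 9.34. The 79 include 3 noncoding RNAs, which encode no channel, and 2 of these (Kcnmb4os2 and Kcnq1ot1) are among the 47. They are counted with the channel genes throughout.

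The study compared lead acetate with saline in 3 genotypes of pups on the C57BL/6J background: wild-type (+/+), heterozygous (+/-) and homozygous (-/-, Mt-KO) for a metallothionein knockout backcrossed for at least 7 generations. Lead acetate or saline was injected at 50 mg/kg, 2 times a day and 4 h apart, on postnatal days 7 and 8, and the whole brains of pups of both sexes were collected 6 h later. Each combination of genotype and treatment was a pool of the RNA of 5 pups on 1 array, so there were 6 pools and no combination of genotype and treatment was repeated. The series title names the question as lead's effect on expression during synapse formation.

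Potassium channels let potassium leave the cell and thereby set the resting potential, end the action potential and limit repetitive firing. The pore of a voltage-gated, calcium-activated or inward-rectifying channel is built by several pore subunits, which may mix within a family, and auxiliary subunits change how it opens and where it sits. In the brain after birth these genes are expressed in neurons and glia, and astrocyte channels also clear potassium from around active neurons.

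The arrays differed in ways that bear on every value below. The RMA values (log2 expression) had medians over the tested genes from 10.87 to 11.05, and the spread of the tested genes was widest in the wild-type saline pool (SD 1.25, against 1.12 to 1.23 in the others). That pool also had the highest Gapdh 3' minus 5' probe difference, 1.19 against 0.54 to 0.82, which is a sign of RNA or labelling quality. The targeted gene Mt1 followed the labels, at 11.68 and 11.71 in the Mt-KO pools against 13.17 and 13.30 in the wild-type pools. The mix of sexes was not equal. The Y-linked Eif2s3y was at 6.50 in the Mt-KO saline pool and at 9.45 to 11.16 in the other 5, highest in Mt-KO lead. The female-expressed Xist was at 12.75 in the Mt-KO saline pool, 10.23 in Mt-KO lead and 11.91 to 12.20 in the other pools. The Mt-KO lead and saline pools thus differed in sex mix as well as in treatment. Pool-to-pool differences are therefore given relative to the median tested gene of each array, and the part of RNA quality and of sex in any result was not tested.

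The wild-type pair showed how brightness moves with such differences. Relative to the median tested gene, lead minus saline in wild-type pups had a median of 0.215 over all 7278 genes under the brightness limit and -0.061 over the brightest band of tested genes. In the heterozygous pair the same medians were -0.116 and 0.098, and in the Mt-KO pair -0.142 and 0.054. The 32 channel genes under the limit had medians of 0.28, -0.089 and -0.17 in these 3 pairs. They include the heart and epithelial subunits Kcne1, Kcne2 and Kcnj1 and the lymphocyte channel Kcna3, and no difference of theirs was tested.

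**Figure D1:**
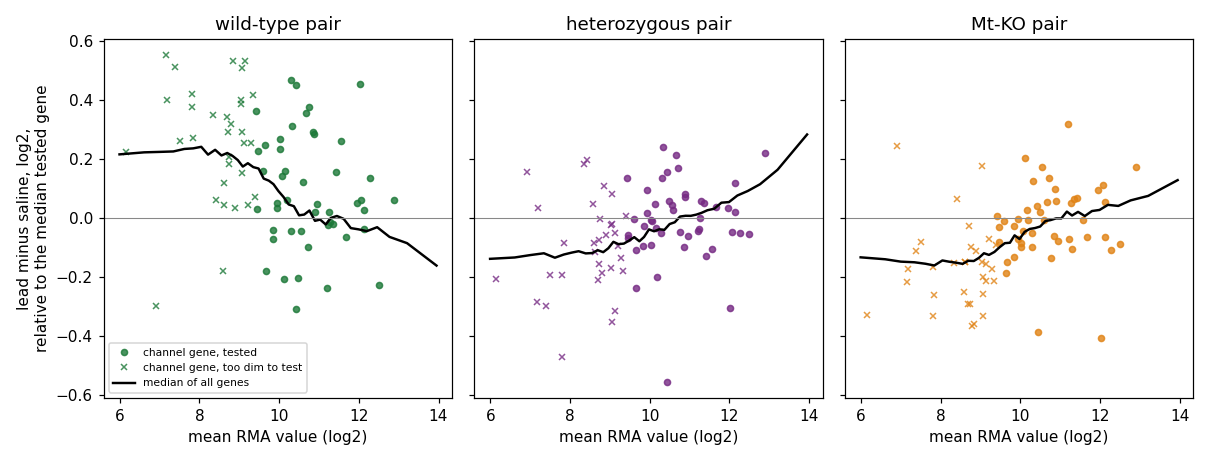
Lead minus saline (log2, relative to the median tested gene) against mean RMA value in each genotype, with 1 point per potassium channel gene and the median of all genes as a line. In the wild-type panel the line runs from above 0 at dim genes to below 0 at bright genes, and in the other panels it runs the opposite way, with the channel genes scattered around it.

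In the fit of genotype and treatment together, no channel gene passed the threshold for lead. Of the 47 tested members 0 had an adjusted p under 0.05 in limma, where 0.119% of all genes tested were called. At an unadjusted p under 0.05 in limma there were 0 members, against 1.53% of all genes. The number called remained 0 for GC-RMA values, PLIER values and quantile-normalized values, where 0%, 0.119% and 0% of all genes were called. With GC-RMA and quantile-normalized values no gene at all passed, so these counts do not describe the members. In the same order 3, 0 and 3 members had an unadjusted p under 0.05 in limma. The share of all genes at that p was not counted there, so these numbers have no background to be read against. The members' coefficients lay near those of all genes, with medians of 0.040 and 0.022 on the log2 scale, and 30 of the 47 were above the median gene. Every 95% interval for lead lay within a 1.5-fold change either way, and the largest coefficient corresponded to 1.18-fold. The intervals use the spread that the fit left over, because no combination of genotype and treatment was repeated. Leaving out the wild-type pair, or either of its arrays, brought 11 members past the threshold (9 higher and 2 lower), in fits in which 24.0% to 24.1% of all genes passed. In such bulk samples, fewer cells of a type and less RNA per cell cannot be told apart.

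**Figure D2:**
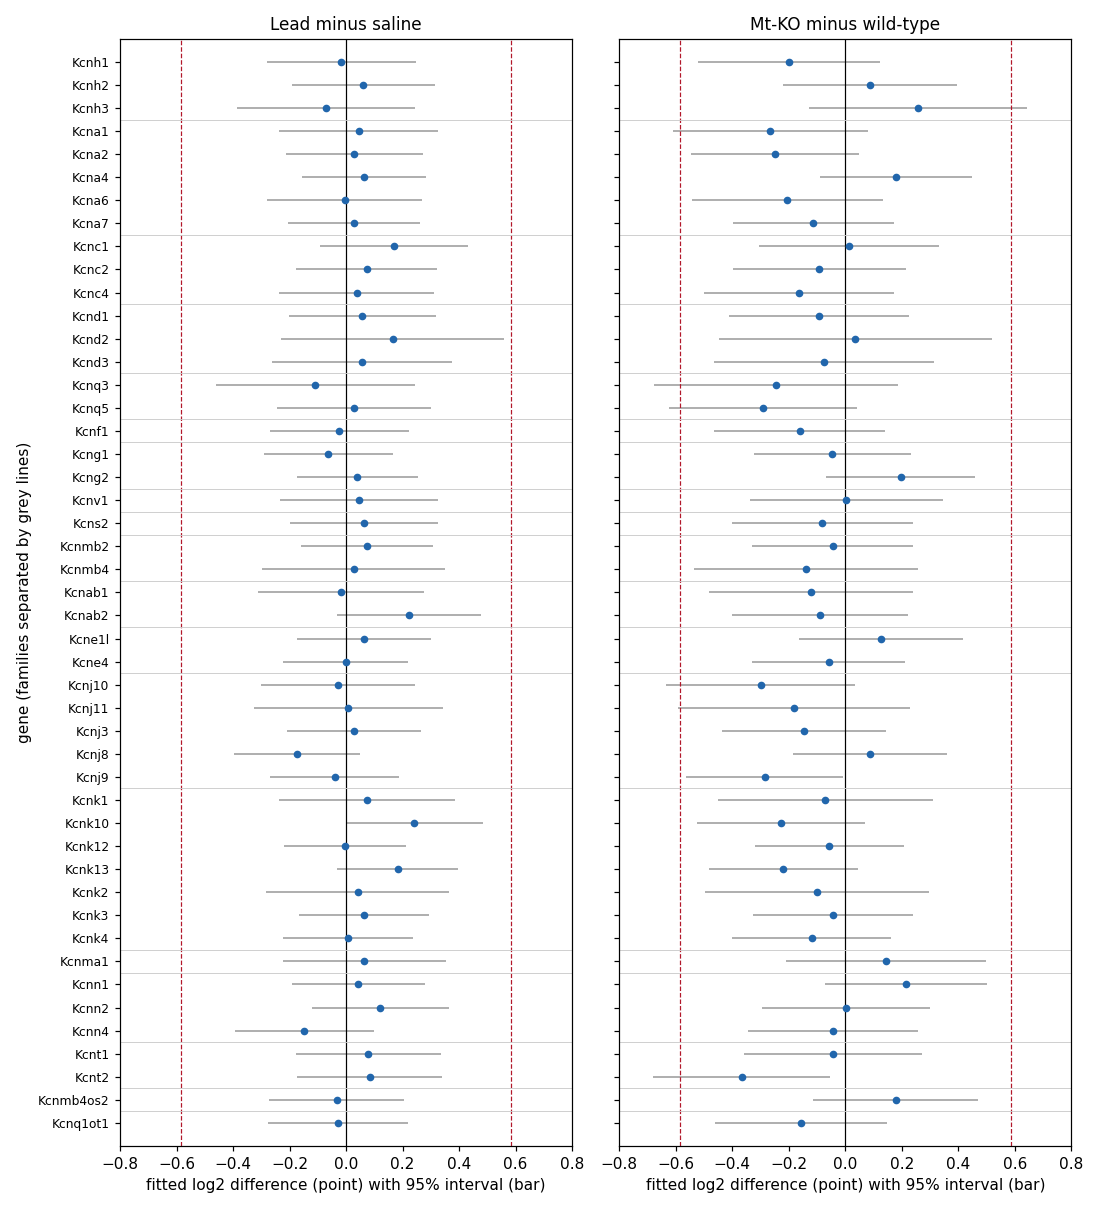
Fitted log2 differences of the 47 tested channel genes with 95% intervals, for lead minus saline and for Mt-KO minus wild-type, with dashed lines at a 1.5-fold change. All 47 lead intervals stay between the dashed lines, as do 40 of the 47 Mt-KO intervals.

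In 3 of the 47 genes (6.38%) the lead pools did not overlap the saline pools after centring on the median gene, where 8.56% of all genes tested did so. Lead minus saline had the same sign in all 3 genotypes for 12 members (25.5%) against 22.5% of all genes. Both shares are near the background, so the genes named here for lead are a description of the largest differences of one sign and not a response of the family. The named genes follow by the role of their product, with saline before lead in each genotype.

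Among the leak channels, whose pore stays open at rest, Kcnk10 had the largest lead coefficient of the members. It encodes a mechanosensitive leak channel, and its RMA values were 10.41 and 10.54 in wild-type, 10.08 and 10.46 in heterozygous and 10.14 and 10.36 in Mt-KO pups. The lead pool was higher in each genotype, by 0.31 in wild-type, 0.24 in heterozygous and 0.13 in Mt-KO pups relative to the median gene, although the ranges of the lead and saline pools overlapped. The coefficient was 0.24 (SE 0.12, limma adjusted p = 1). Kcnk13, which encodes the leak channel of microglia, the immune cells of the brain, read 9.41 and 9.59 in wild-type, 9.36 and 9.62 in heterozygous and 9.23 and 9.33 in Mt-KO pups. Its lead differences were 0.36 in wild-type, 0.13 in heterozygous and 0.008 in Mt-KO pups. The 6 tested microglia markers of 8 on the list had median lead differences of 0.26, 0.25 and 0.03 in the same order, with 0 of the 6 called, and the part of microglia in the Kcnk13 values was not tested. Kcnk1 had a coefficient of 0.074 and was higher with lead in all 3 pairs by 0.034 to 0.094.

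Among the voltage-gated pores, Kcnd2 carries the fast A-type current of dendrites, and its values were 12.92 and 12.80 in wild-type, 12.76 and 13.11 in heterozygous and 12.76 and 13.02 in Mt-KO pups. After centring the 3 lead pools were all above the 3 saline pools. The coefficient was 0.17 (SE 0.20). Kcnc1, which lets fast-spiking neurons such as those of the cerebellum fire at high rates, differed by 0.29 in wild-type, 0.079 in heterozygous and 0.10 in Mt-KO pups. The 9 tested cerebellum markers of 10 had median lead differences of 0.64, 0.26 and 0.24, of which 2 (En2 and Pax6) passed as higher with lead, and the part of cerebellar RNA in the Kcnc1 values was not tested. Kcnq3, a subunit of the slow M-current that restrains firing, had a coefficient of -0.11 (SE 0.18), with lead minus saline of -0.23 in wild-type, -0.054 in heterozygous and -0.089 in Mt-KO pups.

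Of the auxiliary subunits, Kcnab2 was the member with the largest difference. Its product is a cytoplasmic beta subunit that helps axonal Kv channels reach the membrane. The values were 10.62 and 10.80 in wild-type, 10.50 and 10.84 in heterozygous and 10.55 and 10.69 in Mt-KO pups. All 3 lead pools were above all 3 saline pools after centring, by 0.36 in wild-type, 0.21 in heterozygous and 0.055 in Mt-KO pups within genotypes, with a coefficient of 0.22 (SE 0.13, limma adjusted p = 1). The other members of the auxiliary group, Kcnmb2, Kcnmb4, Kcnab1, Kcne1l and Kcne4, had coefficients from -0.017 to 0.073.

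Among the inward rectifiers, Kcnj8 was the only member whose lead pools were all below its saline pools after centring. It encodes the pore of an ATP-sensitive channel known from pericytes and smooth muscle. It read 9.80 and 9.44 in wild-type, 9.72 and 9.62 in heterozygous and 9.73 and 9.68 in Mt-KO pups, and lead minus saline was -0.18 in wild-type, -0.24 in heterozygous and -0.15 in Mt-KO pups. The 5 tested pericyte and smooth muscle markers of 7 had median differences of 0.17, -0.16 and -0.21, which is the opposite sign in wild-type pups and the same sign in the other genotypes. The coefficient of Kcnj8 was -0.17 (SE 0.11), and it was 0.061 with the GC-RMA values, so its sign depended on the summary. Kcnj9 and Kcnj10 had coefficients of -0.041 and -0.029, and the silent subunit Kcng1, which forms channels only together with other Kv pores, -0.063. The members with the largest lead t (coefficient over its SE) in their families, beside those already named, were 0.073 for Kcnmb2, 0.061 for Kcnh2, 0.063 for Kcna4, -0.024 for Kcnf1, 0.045 for Kcnv1, 0.064 for Kcns2, 0.064 for Kcne1l, 0.083 for Kcnt2 and -0.15 for Kcnn4, all with SE of 0.11 to 0.14.

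**Figure D3:**
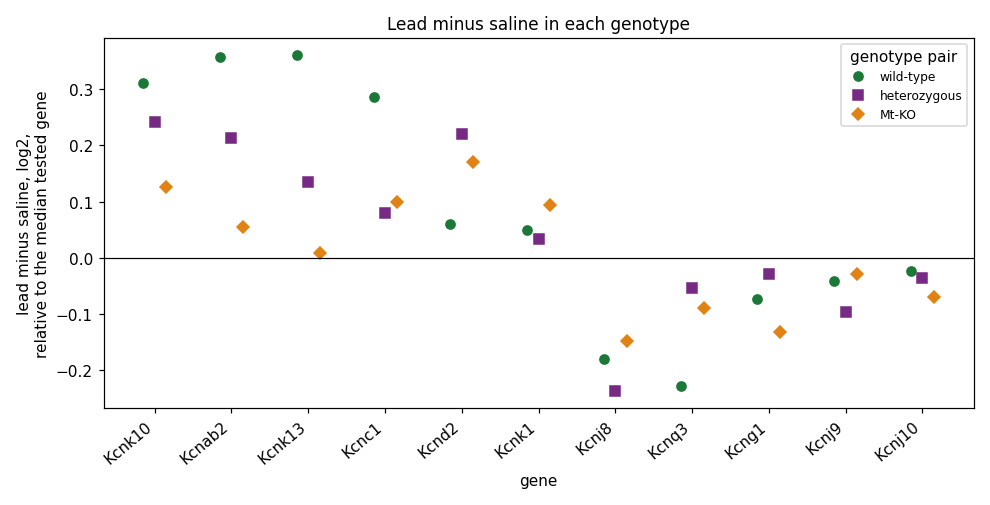
Lead minus saline (log2, relative to the median tested gene) in each genotype's pair of pools for the 11 channel genes named for the largest lead coefficients, up to 6 in each direction, among those whose 3 pairs had the same sign. The differences of Kcnk10, Kcnab2 and Kcnk13 are above 0 in each pair and smallest in the Mt-KO pair, and those of Kcnj8 lie between -0.24 and -0.15.

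The comparison of genotypes asked whether channel expression differed where metallothionein was missing. Between Mt-KO and wild-type, 0 of the 47 members passed the adjusted threshold in limma, where 0.431% of all genes tested were called. An unadjusted p under 0.05 in limma was reached by 2 members (Kcnt2 and Kcnj9), and by 3.5% of all genes. That number was 9 after median centring, 10 after quantile normalization, 4 with GC-RMA values and 0 with PLIER values. The share of all genes at that p was not counted in these settings. The 3.5% of the main fit is not their background, so these numbers do not describe the members. The members' median coefficient was -0.089 against -0.029 for all genes, and 34 of 47 were below the median gene. This count was 35 after quantile normalization, 29 with GC-RMA values, 30 with PLIER values and 31 with the mean over each gene's probe sets. After centring, 22 members (46.8%) had both Mt-KO pools below both wild-type pools, where 27.3% of all genes did, and 7 (14.9%) had them above, where 13.8% did. In either direction the groups did not overlap in 29 members (61.7%), against 41.1% of all genes. With GC-RMA values they did not overlap in 17 members (36.2%), against 36.1% of all genes. With PLIER values there were 26 members (55.3% against 45.5%) and with values as deposited 23 (48.9% against 28.9%). The excess over all genes was therefore absent with 1 summary and present with the others. These shares describe the list and are not a test of it. Without the wild-type lead array 22 members passed (20 lower and 2 higher), in a fit in which 40.1% of all genes did, and without the wild-type saline array 2 passed (1 in each direction), with 22.3% of all genes.

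By role, the lower values were spread over the groups. All 7 leak channel genes tested and 4 of 5 inward rectifier genes were below the median gene, with group medians of -0.0996 and -0.18. Of the voltage-gated pores 11 of 16 were below it, of the auxiliary subunits 5 of 6, of the silent subunits 3 of 5 and of the calcium- or sodium-activated pores 3 of 6. The whole-brain neuron markers had a median coefficient of -0.38 over 8 of 8 tested genes, all 8 negative and 0 called. These genes are bright on average, and the brightest band of all tested genes had medians of -0.163 with saline and -0.071 with lead between the same pools, where the neuron list had -0.48 and -0.27. The astrocyte list had a median of -0.22 over 8 of 8 genes, 6 of them negative. Other lists had the opposite sign, with a median of 0.20 for the cerebellum markers (7 of 9 positive) and 0.12 for the endothelium markers (3 of 5 positive). The part of cell composition in the channel values was not tested.

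**Figure D4:**
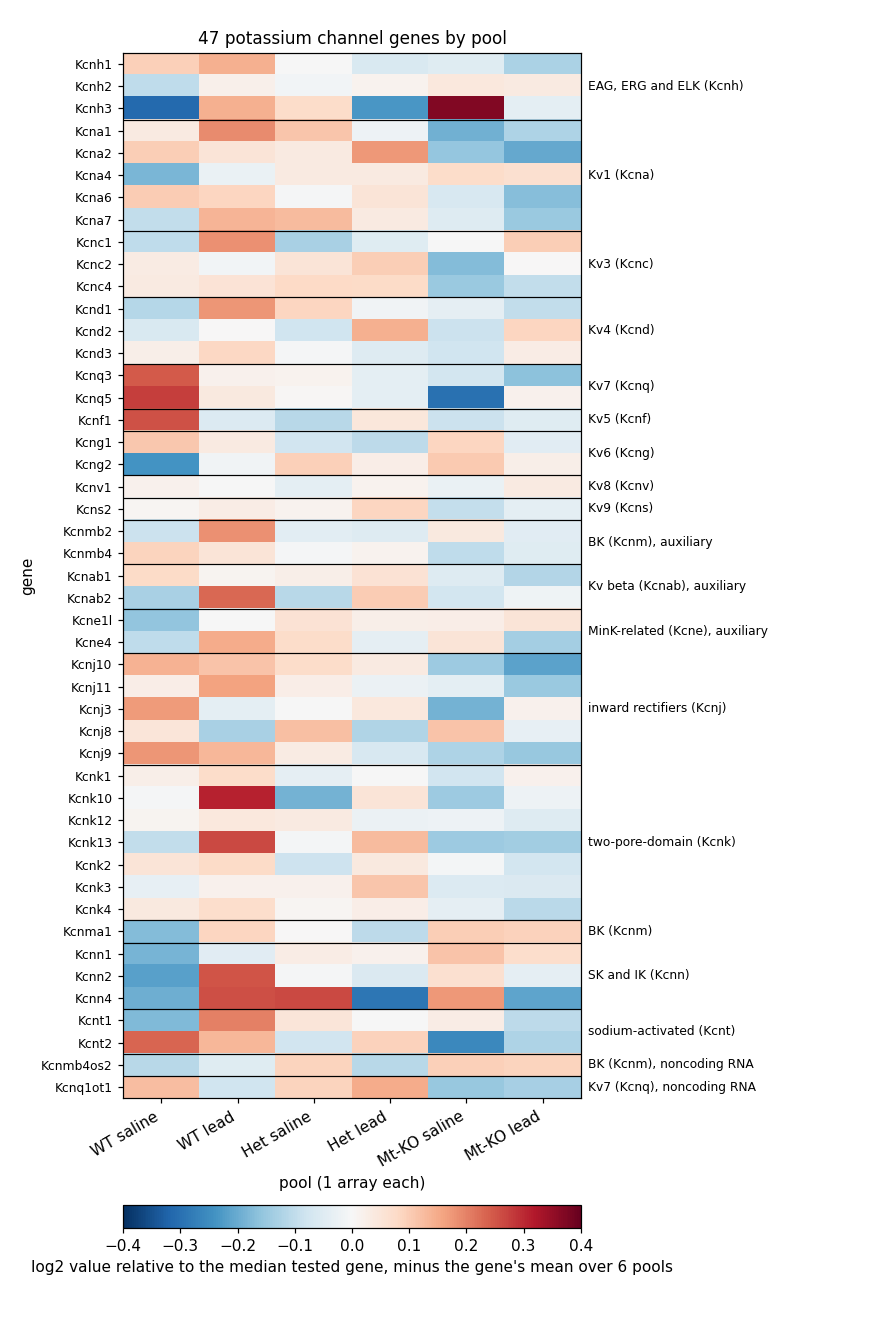
RMA values of the 47 tested channel genes in the 6 pools, each relative to the median tested gene of its array and to the gene's own mean over the pools, in blocks by family (red above and blue below the gene's mean). The Mt-KO columns are mostly blue for the leak, inward rectifier and Kv1 families, Kcnj8 and Kcna4 aside, and the wild-type saline column holds strong values in both directions, such as those of Kcnq5 (high) and Kcnh3 (low).

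The member with the largest difference was Kcnt2, a sodium-activated channel that carries a slow current after bursts of firing. It read 11.03 and 10.75 in wild-type, 10.58 and 10.88 in heterozygous and 10.41 and 10.63 in Mt-KO pups. Both Mt-KO values lay below both wild-type values, and of the heterozygous values the lead one lay between the wild-type values and the saline one below them. The Mt-KO minus wild-type coefficient was -0.37 (SE 0.16, limma adjusted p = 0.987), a 1.29-fold lower value. Without the wild-type saline array it was -0.093, and without the wild-type lead array -0.64, so the size rested on which wild-type pool was used. Kcnt1, the related channel, had a coefficient of -0.045.

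Among the inward rectifiers, Kcnj10 encodes the channel by which astrocytes take up potassium. Its values were 11.45 and 11.24 in wild-type, 11.24 and 11.34 in heterozygous and 11.03 and 11.06 in Mt-KO pups. The Mt-KO pools were the lowest of the 6, by -0.28 with saline and -0.33 with lead relative to wild-type. The coefficient was -0.30 (SE 0.17, limma adjusted p = 1). The 8 astrocyte markers had median differences of -0.21 with saline and -0.23 with lead between the same pools, and their part in the Kcnj10 values was not tested. Kcnj9 encodes a subunit of the channels that inhibitory transmitters open through G proteins, and its brightest probe set read 10.09 and 9.87 in wild-type, 9.81 and 9.84 in heterozygous and 9.66 and 9.73 in Mt-KO pups. Every Mt-KO value was below every heterozygous one, and these were below the wild-type values. The coefficient was -0.29 (SE 0.14).

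A dimmer probe set of Kcnj9, singled out after its values were seen, gave the opposite. It read 9.14 and 9.02 in wild-type, 10.31 and 9.56 in heterozygous and 9.81 and 9.99 in Mt-KO pups. Its wild-type values were below all the others, with coefficients of 0.81 for Mt-KO and 0.85 for heterozygous pups. The Kcnj9 call of direction therefore depended on the probe set. Across the 17 members with 2 or more probe sets above the brightness limit, the probe sets of a gene differed in sign in 9 for Mt-KO against wild-type, in 11 for heterozygous against wild-type and in 8 for lead.

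**Figure D5:**
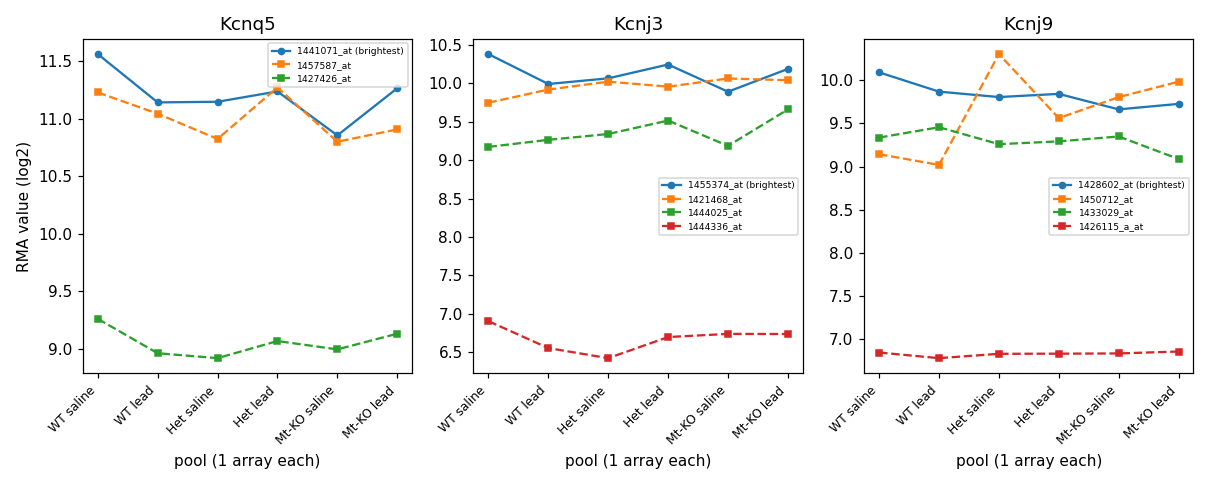
RMA values (log2) of every probe set of Kcnq5, Kcnj3 and Kcnj9 in the 6 pools, the brightest with a solid line. The second Kcnj9 probe set is lowest in the wild-type pools, at 9.14 and 9.02, where the brightest is highest, and the second Kcnj3 probe set does not follow the brightest.

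Among the voltage-gated pores, the axonal delayed rectifiers Kcna1, Kcna2 and Kcna6, which keep axons from firing repeatedly, had coefficients of -0.27, -0.25 and -0.21 (SE 0.18, 0.15 and 0.17). The Kcna1 values were 11.54 and 11.51 in wild-type, 11.47 and 11.47 in heterozygous and 11.18 and 11.34 in Mt-KO pups. The Kcna2 values were 10.48 and 10.25 in wild-type, 10.28 and 10.55 in heterozygous and 10.10 and 10.14 in Mt-KO pups. With these brightest probe sets the Mt-KO pools were the lowest in both genes. The second Kcna1 probe set was lowest in the wild-type lead pool (11.15), with a coefficient of -0.047. The second Kcna2 probe set was lowest in the wild-type saline pool (9.69), with -0.0086. The third probe sets of Kcna1 and Kcna2, also above the brightness limit, had -0.23 and -0.29. Kcna4, the A-type member of the same family, went the other way with 0.18 (SE 0.14) and read 9.50 and 9.47 in wild-type, 9.58 and 9.71 in heterozygous and 9.62 and 9.70 in Mt-KO pups. With the mean over its probe sets the Kcna4 coefficient was -0.11. The M-current genes Kcnq3 and Kcnq5 had coefficients of -0.24 and -0.29.

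The genes that were higher in Mt-KO included some of the pores opened by calcium, while others, Kcnn2 and Kcnn4, had coefficients of 0.003 and -0.044. Kcnn1, a small-conductance channel of the afterhyperpolarization, read 9.96 and 9.92 in wild-type, 10.03 and 10.15 in heterozygous and 10.13 and 10.17 in Mt-KO pups. Both Mt-KO values were above both wild-type values, with a coefficient of 0.21 (SE 0.15, limma adjusted p = 1). Kcnma1, the large-conductance calcium-activated channel, had 0.14 (SE 0.18) with its brightest probe set and -0.16 with the mean over its 5 probe sets. The silent subunit Kcng2, the antisense transcript Kcnmb4os2 and the auxiliary subunit Kcne1l had coefficients of 0.20, 0.18 and 0.13. The silent subunits otherwise spanned -0.16 for Kcnf1 to 0.0029 for Kcnv1.

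Between heterozygous and wild-type pups, which shared the wild-type arrays with the comparison above, 0 of 47 members passed in limma, where 0.119% of all genes were called. At an unadjusted p under 0.05 in limma there were 0 members, against 1.2% of all genes. The groups did not overlap in 19 members (40.4%) against 23.1% of all genes, and in 16 (34%) against 22.8% with PLIER values. The number was only 9 of 47 (19.1%) with the values as deposited, against 13.4%, and 9 with GC-RMA values, against 23.7%. The largest coefficients among members whose pairs had the same sign were 0.20 for Kcng2, 0.16 for Kcna4 and 0.15 for Kcnn1 upwards and -0.20 for Kcnk10, -0.16 for Kcnq5, -0.16 for Kcnt2 and -0.16 for Kcnj9 downwards. Smaller ones were 0.14 for Kcne1l, 0.086 for Kcnk3, 0.079 for Kcnc2, -0.15 for Kcng1 and -0.14 for Kcnh1. With GC-RMA values the sign turned for Kcng2 (-0.0045), Kcnn1 (-0.11) and Kcnc2 (-0.023), and with the mean over probe sets for Kcnj9 (0.15) and Kcng1 (0.039). With PLIER values it turned for Kcnc2 (-0.0026). The SE of these coefficients was 0.13 to 0.17, so none stood apart from the spread that the fit left over. Without the wild-type lead array 10 members passed and without the wild-type saline array 4, when 22.2% and 24.1% of all genes did.

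Between Mt-KO and heterozygous pups 0 of 47 members passed in limma, where 0.156% of all genes were called. An unadjusted p under 0.05 in limma was reached by 0 members, and by 1.32% of all genes. That number was 4 after median centring, 4 after quantile normalization, 1 with GC-RMA values and 0 with PLIER values. The share of all genes at that p was not counted in these settings. The 1.32% of the main fit is not their background, so these numbers do not describe the members. Kcna2 was lowest relative to heterozygous pups, by -0.29 (SE 0.15), followed by the noncoding RNA Kcnq1ot1, which silences imprinted genes around Kcnq1, by -0.27, and Kcnj10 by -0.24. The largest positive coefficients were 0.24 for Kcnh3, 0.14 for Kcnma1 and 0.13 for Kcnc1. None of these 3 kept its sign throughout: Kcnh3 was -0.038 with GC-RMA values, and Kcnma1 and Kcnc1 were -0.055 and -0.056 with the mean over probe sets. All pools share the estimate of the spread, and without the wild-type pair Kcna2, Kcnq1ot1 and Kcnj10 passed as lower, with 2.39% of all genes called. The groups did not overlap in 26 members (55.3%), where 37.7% of all genes did not overlap. There were 24 such members with GC-RMA values (51.1% against 41.7%) and 23 with PLIER values (48.9% against 41.1%). With values as deposited there were 20 (42.6% against 24%).

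The design also allowed a test of whether the lead difference depended on the number of intact metallothionein alleles. In this fit 2 of the 47 members passed (4.26%), both with a negative coefficient, where 3.77% of all genes were called and 3.34% with a negative one. At an unadjusted p under 0.05 there were 8 members, against 20.1% of all genes. All genes were shifted in it, with a median coefficient of -0.145 per allele, and the members' median was -0.093. The coefficient is the change in the lead minus saline difference for each added intact allele. After centring the arrays on the median gene, the number of members that passed was 0, and 0.183% of all genes passed.

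Kcnq5, an M-current pore of cortical and hippocampal neurons, had the largest coefficient. Its values were 11.56 and 11.14 in wild-type, 11.15 and 11.24 in heterozygous and 10.85 and 11.26 in Mt-KO pups. The wild-type saline pool was the highest and the Mt-KO saline pool the lowest of the 6, and the lead pools lay between 11.14 and 11.26. Relative to the median gene, lead minus saline was -0.24 in wild-type, -0.044 in heterozygous and 0.32 in Mt-KO pups. The interaction coefficient was -0.41 (SE 0.12, limma adjusted p = 0.0256), of which the shift of all genes was -0.145. It was -0.28 with an adjusted p of 0.0842 in limma after centring the arrays on the median gene, and -0.35 with an adjusted p of 1 in limma without the wild-type saline array. A second Kcnq5 probe set of similar brightness read 11.23 and 11.04 in wild-type, 10.82 and 11.27 in heterozygous and 10.80 and 10.91 in Mt-KO pups. In it the highest lead pool was the heterozygous one, and its Mt-KO lead value stayed close to the Mt-KO saline value.

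Kcnj3, the main subunit of the G-protein-gated inward rectifier of neurons and heart, was the other. It read 10.38 and 9.99 in wild-type, 10.07 and 10.25 in heterozygous and 9.89 and 10.19 in Mt-KO pups, and lead minus saline was -0.21 in wild-type, 0.046 in heterozygous and 0.20 in Mt-KO pups. The coefficient was -0.34 (SE 0.11, limma adjusted p = 0.0495), near the threshold, and -0.21 with an adjusted p of 0.215 in limma after centring. The second Kcnj3 probe set read 9.75 and 9.92 in wild-type, 10.02 and 9.96 in heterozygous and 10.06 and 10.04 in Mt-KO pups. Its wild-type saline value was the lowest of the 6, where that of the brightest probe set was the highest. Neither Kcnq5 nor Kcnj3 passed without the wild-type saline array, the wild-type lead array, the heterozygous saline array or the Mt-KO saline array. In each of these fits a smaller share of all genes passed than in the fit of all arrays. Without the Mt-KO lead array Kcnj3 passed and Kcnq5 did not, although a larger share of all genes passed in that fit.

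Some members with no call had wide differences between pools in this comparison. Kcnh3, a pore of the ELK group that limits excitability of forebrain neurons, had the widest range of any member, 0.68 between pools, and read 11.80 and 12.07 in wild-type, 12.04 and 11.87 in heterozygous and 12.35 and 12.03 in Mt-KO pups. Its wild-type saline pool was the lowest and its Mt-KO saline pool the highest. Lead minus saline was 0.45 in wild-type, -0.31 in heterozygous and -0.41 in Mt-KO pups. The interaction coefficient was 0.29 (limma adjusted p = 0.209). The second Kcnh3 probe set had the same lowest and highest pools (11.57 and 11.86). The third, also above the brightness limit, was highest in wild-type lead (10.80) and lowest in Mt-KO lead (10.43). Kcnn4, the intermediate-conductance calcium-activated channel known from blood and immune cells, read 10.32 and 10.59 in wild-type, 10.64 and 10.22 in heterozygous and 10.56 and 10.27 in Mt-KO pups. Its lead differences were 0.45 in wild-type, -0.56 in heterozygous and -0.39 in Mt-KO pups, with an interaction coefficient of 0.28 (limma adjusted p = 0.135). Kcnn2, the small-conductance channel of the afterhyperpolarization, differed by 0.47 in wild-type, -0.053 in heterozygous and -0.097 in Mt-KO pups, and the silent subunit Kcnf1 by -0.31 in wild-type, 0.16 in heterozygous and 0.039 in Mt-KO pups. In each of these 4 genes the wild-type pair had the sign opposite to that of at least 1 other pair.

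The promoters of both genes that passed are shown because metallothionein genes are switched on through metal response elements. Their core, TGCACNC or TGCGCNC on either strand, was the only motif searched, and cores may overlap. The windows run from 250 bases before to 50 after the start in RefSeq (GRCm38.p6), written in the direction of transcription with cores in capitals. Kcnq5 (minus strand, chr1:21961893-21962192) holds 3 cores, 2 of them overlapping, Kcnj3 (plus strand, chr2:55435720-55436019) holds 0, and the metallothionein gene Mt1 (plus strand, chr8:94178839-94179138) holds 3.
Kcnq5: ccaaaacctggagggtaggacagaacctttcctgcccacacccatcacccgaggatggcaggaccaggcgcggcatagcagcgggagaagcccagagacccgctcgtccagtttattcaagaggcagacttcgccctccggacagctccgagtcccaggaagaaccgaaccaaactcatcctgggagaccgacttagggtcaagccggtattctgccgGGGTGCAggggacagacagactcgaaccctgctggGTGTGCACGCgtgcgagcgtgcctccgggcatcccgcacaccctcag
Kcnj3: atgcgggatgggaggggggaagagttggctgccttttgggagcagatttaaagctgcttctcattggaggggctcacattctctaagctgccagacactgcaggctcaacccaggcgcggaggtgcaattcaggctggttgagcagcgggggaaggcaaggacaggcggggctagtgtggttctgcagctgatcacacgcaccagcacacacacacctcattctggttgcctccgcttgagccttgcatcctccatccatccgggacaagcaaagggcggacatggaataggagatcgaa
Mt1: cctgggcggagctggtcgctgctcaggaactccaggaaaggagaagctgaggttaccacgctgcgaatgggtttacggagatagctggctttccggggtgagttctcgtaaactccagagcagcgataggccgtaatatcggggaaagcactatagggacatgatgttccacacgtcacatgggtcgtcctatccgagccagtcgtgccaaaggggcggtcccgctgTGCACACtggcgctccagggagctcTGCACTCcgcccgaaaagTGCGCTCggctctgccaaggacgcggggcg

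A core was found in 21 of 48 promoters of the tested members (43.8%), against 36.6% of the 11461 promoters of all genes tested. Mt2, a further metallothionein gene, holds 4 in its window, and the second Kcnq5 promoter of the table holds 0. The matches are letters in a window and not sites shown to be bound.

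Genes that work with these channels were counted from separate lists. None of the 6 A-type channel partners, 9 genes of Kv1 clustering at axons, 3 Kv2 partners, 2 sulfonylurea receptors, 3 turnover genes, 2 pacemaker channel genes, 3 sodium potassium pump genes or 2 potassium chloride cotransporter genes tested passed for lead, for any genotype comparison or for the interaction in limma. Of the 8 voltage-gated sodium channel genes tested, 1, Scn9a, passed for the interaction with -0.41 (limma adjusted p = 0.00668), and 0 passed in the other comparisons. At an unadjusted p under 0.05, over the 38 genes of these lists, there were 0 for lead, 1 for Mt-KO against wild-type, 0 for heterozygous against wild-type, 1 for Mt-KO against heterozygous and 3 for the interaction. The shares of all genes tested at that p were 1.53%, 3.5%, 1.2%, 1.32% and 20.1% in the same order. The 3 measured gamma subunits of the large-conductance channel lay below the brightness limit. In Mt-KO against wild-type the medians were -0.26 for the pumps, which build the potassium gradient, with 3 of 3 negative, -0.22 for the cotransporters, with 2 of 2 negative, and -0.19 for the sodium channels, with 7 of 8 negative. The A-type partners had -0.10, with 5 of 6 negative, and the median of all genes was -0.029.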

How the data were processed

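Expression was measured on 6 Affymetrix mouse arrays, 1 for each pool. Each array has 3 summaries, so 18 columns were deposited, and these do not count as replicates. The submitters' processing notes name Partek, RMA, GCRMA and PLIER. Their versions are not given in the sources used here. RMA and GC-RMA values were deposited as log2 expression. PLIER values were deposited as linear intensities, and log2(value + 16) was taken here. The labels' protocols name a labelling kit for whole-transcript arrays, while the identifiers are those of a 3' array.

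Probe sets were named by GEO's platform annotation: of 45101, 34958 had 1 symbol and 10143 had several or none. Per gene the probe set with the highest mean RMA value was kept, and the upper 60% of genes were tested. RMA was the main setting. Genotype and treatment were the terms of the main fit (R 4.3.3, limma 3.58.1, lmFit and trended eBayes). A second fit let the lead difference depend on the number of intact alleles. Both leave 2 residual degrees of freedom, and limma gave every gene the spread typical of its brightness (an infinite prior). Because no combination was repeated, the spread behind the p-values and intervals is what each fit leaves over. It is not the variation between pools of the same genotype and treatment. P-values were adjusted over all 10916 genes by Benjamini-Hochberg at 0.05. The code was tested on simulated data. The number of arrays limits precision.

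The members and gene lists were chosen with earlier results of these data known. Named were members past the threshold; per direction, the 6 (lead and the comparisons with wild-type, pairs of the same sign) or 3 (Mt-KO against heterozygous, interaction) with the largest coefficients; the 6 with the widest range between pools; and, in each family, the largest lead t (coefficient over its SE). Alternatives were the other summaries, quantile normalization, median centring, other brightness limits, the mean over probe sets, eBayes without trend, a threshold of 0.10, no genotype term and leaving out arrays or pairs. Promoters came from RefSeq for 60 of the 79 members.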

Additional observations from a re-analysis of the deposited data

Results flagged for a closer look

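Kcnq5 and Kcnj3 passed the test of whether the lead difference depends on the number of intact metallothionein alleles, as did 3.77% of all genes (4.26% of the members). The coefficient per allele was -0.41 for Kcnq5 (limma adjusted p = 0.0256) and -0.34 for Kcnj3 (limma adjusted p = 0.0495). Lead minus saline relative to the median gene was -0.24 in wild-type, -0.044 in heterozygous and 0.32 in Mt-KO pups for Kcnq5 and -0.21 in wild-type, 0.046 in heterozygous and 0.20 in Mt-KO pups for Kcnj3. Neither passed after centring the arrays on the median gene (limma adjusted p = 0.0842 for Kcnq5 and 0.215 for Kcnj3). The same held with GC-RMA values (limma adjusted p = 0.362 and 0.554) and after quantile normalization (limma adjusted p = 0.233 for both). In these settings 0.183%, 0% and 0.00916% of all genes passed. The Mt-KO lead and saline pools also differed in sex mix, and its part in both results was not tested. The median of all genes in this test was -0.145, 412 genes passed, and the part of the wild-type saline array in both results was not tested beyond leaving it out, when neither gene passed.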

How the results depend on the processing

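Lead was compared with saline within the 3 genotype pairs by the genotype term. Single pups could not be paired, because each combination of genotype and treatment was 1 pool. Without the genotype term 0 members passed for lead, where 0% of all genes passed. Over 56 named values and 10 settings that keep all arrays, 457 of 494 comparisons kept their direction and side of the threshold, 13 lost the threshold, 2 gained it, and 22 changed sign over 19 values. The number of members past the interaction threshold was 2. It was 0 with GC-RMA values, quantile normalization, centred arrays, no brightness filter or eBayes without trend. In these settings 0%, 0.00916%, 0.183%, 0.506% and 0.724% of all genes passed, against 3.77% in the main fit. The number was 1 (Kcnq5) with PLIER values or the upper 40% of genes, where 1.3% and 1.36% of all genes passed. With the mean over probe sets it was 2 other genes, Kcnma1 (-0.28) and Kcnn4 (0.26), where 4.65% of all genes passed. For Mt-KO against wild-type, groups did not overlap in 29 members, and in 17 with GC-RMA values (36.2% against 36.1% of all genes). The number was 26 with PLIER values (55.3% against 45.5%) and 23 as deposited (48.9% against 28.9%). For heterozygous against wild-type it was 19, and 16 with PLIER values (34% against 22.8%). There it was 9 with GC-RMA values (19.1% against 23.7%) and 9 as deposited (19.1% against 13.4%). Leaving out arrays, the number called ran from 0 to 11 for lead, 0 to 22 for Mt-KO against wild-type (22 without wild-type lead, when 40.1% of all genes passed, and 2 without wild-type saline), 0 to 10 for heterozygous against wild-type (10 without wild-type lead, 4 without wild-type saline), 0 to 3 for Mt-KO against heterozygous and 0 to 3 for the interaction, which was 0 without either wild-type array, heterozygous saline or Mt-KO saline. With GC-RMA values the sign changed to Kcnj8 0.061, Kcng1 0.022, Kcnf1 0.060 for lead, Kcng2 -0.0045, Kcnn1 -0.11, Kcnc2 -0.023 for heterozygous against wild-type, Kcnh3 -0.038 for Mt-KO against heterozygous, Kcnn2 -0.15 for the interaction. With PLIER values the sign changed to Kcnj9 0.0014, Kcnj10 0.062, Kcnv1 -0.067 for lead, Kcnc2 -0.0026 for heterozygous against wild-type, Kcnn2 -0.27 for the interaction. With the mean over probe sets the sign changed to Kcna4 -0.019, Kcnf1 0.014 for lead, Kcna4 -0.11, Kcnma1 -0.16, Kcnj9 0.096 for Mt-KO against wild-type, Kcnj9 0.15, Kcng1 0.039 for heterozygous against wild-type, Kcnma1 -0.055, Kcnc1 -0.056 for Mt-KO against heterozygous. In the leave-out fits with the most members called, a larger share of all genes was called than in the main fit. Leaving out an array or a pair, the coefficients that changed sign ran as follows. They were Kcnq3 -0.20 to 0.041, Kcng1 -0.15 to 0.033, Kcnj9 -0.093 to 0.050, Kcnj10 -0.092 to 0.060, Kcnf1 -0.18 to 0.21, Kcnv1 -0.024 to 0.17, Kcns2 -0.007 to 0.18, Kcnt2 -0.028 to 0.27 for lead. Those for Mt-KO against wild-type were Kcnq5 -0.63 to 0.043. Those for heterozygous against wild-type were Kcnk3 -0.058 to 0.23, Kcnc2 -0.15 to 0.30, Kcnq5 -0.49 to 0.18, Kcnt2 -0.43 to 0.11. The causes were not tested.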

Other observations

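Further probe sets that did not stand for their gene are given here as values, chosen after they were seen. The second Kcnh1 probe set read 10.84 and 10.90 in wild-type, 10.35 and 10.62 in heterozygous and 10.60 and 10.02 in Mt-KO pups, with coefficients of -0.56 for Mt-KO and -0.39 for heterozygous against wild-type, where the brightest had -0.20 and -0.14. The second Kcnn1 probe set, under the brightness limit, read 9.04 and 9.25 in wild-type, 9.40 and 9.32 in heterozygous and 9.68 and 9.57 in Mt-KO pups, with 0.48 for Mt-KO, the same direction as the brightest. The dimmest Kcnma1 probe set read 8.23 and 7.43 in wild-type, 7.33 and 7.19 in heterozygous and 7.08 and 7.48 in Mt-KO pups, with -0.54 for Mt-KO, the opposite direction to the brightest. Its wild-type saline value was the highest of the 6. Kcnh1 encodes a pore of the EAG group of brain neurons.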
